A study of Homo sapiens with 6 samples.

Results

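Small nucleolar RNA (snoRNA) host genes of the long non-coding class were examined in 6 polyA RNA-seq libraries of K562 cells, a human erythroleukemia line, 3 without doxycycline (−Dox) and 3 with it (+Dox). The members are the lncRNA genes of GENCODE 44 named SNHG with a number, together with GAS5, EPB41L4A-AS1 and ZFAS1. They came to 31 of the 62252 genes that had a transcript in the deposited files, and 29 of the 31 had a mean count above 10 and entered the test. All cells carried a Flag-tagged PCBP1 cassette under a tet-inducible promoter, placed by recombinase-mediated cassette exchange into K562 flox cells, a line grown from 1 edited clone at the AAVS1 locus. The −Dox libraries are labelled Control and the +Dox libraries PCBP1 OE, for overexpression. Dox itself thus differed between the groups along with Flag-PCBP1, and the dose and time of Dox for these libraries are not given in the sources used here. Replicate numbers are all that separates the samples of a group in the labels, so p-values measure the spread between these samples, which may be technical. Estimated counts matched to genes totalled 70811161 to 84061068 per library.

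PCBP1, an RNA-binding protein that recognizes C-rich sequence, served as a check of the labels. Its normalized counts (CPM, counts brought to a common library size with TMM) were 248, 269.5 and 267 in −Dox and 1030.0, 936 and 1037 in +Dox. The rise was 3.83-fold, with a log2 fold change of 1.94 ± 0.06 (SE). Red cell markers of K562 were abundant in all 6 libraries, with HBG2, a fetal globin, at 3390.0 to 3860.0 CPM and GATA1, an erythroid transcription factor, at 157 to 183 CPM. The T cell gene CD3E had at most 6 counts in a library. Of the 13 markers listed for K562 and for other cell types, 3 were higher, 1 lower, 8 did not pass and CD3E was not tested. The erythroid transcription factors TAL1 (log2 fold change 0.44 ± 0.05) and KLF1 (0.46 ± 0.07) were among those that rose. The leukocyte gene PTPRC fell, from 207, 195 and 196 CPM in −Dox to 150.0, 157 and 171 in +Dox (-0.32 ± 0.05, adjusted p = 0.00161). The epithelial gene EPCAM, at 40.9 to 46.2 CPM, did not pass (-0.12 ± 0.05). The part of these markers in the results for the host genes was not tested.

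snoRNAs are short nuclear RNAs that guide chemical modification of ribosomal and spliceosomal RNA. Box C/D snoRNAs guide methylation of the ribose and box H/ACA snoRNAs guide pseudouridylation. Most human snoRNAs are cut from the introns of host genes, so that 1 transcript gives a spliced host RNA and 1 or more snoRNAs. Many non-coding host RNAs begin with a pyrimidine tract of the kind found on mRNAs of the translation machinery, and GAS5 is a textbook case of a spliced host RNA that is turned over through nonsense-mediated decay. The level of a spliced host RNA in a polyA library is therefore not the level of its snoRNAs, which lack a polyA tail.

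The snoRNAs carried by the hosts that the results turn on are shown first, read from GRCh38 on the strand of the host. The annotation rule took genes of type snoRNA or scaRNA (small Cajal body RNA) within an intron of a member, on the same strand. It found 139 entries in the members, called nested snoRNA genes here. Some entries cover the same locus, such as those of SNORA16A in SNHG12, so distinct RNAs are fewer. For GAS5 the rule found none in GENCODE 44, whereas RefSeq places 11 snoRNA genes within the gene. Box C/D examples are SNORD7 of SNHG30 (chr17:35573657-35573753), SNORD1B of SNHG16 (chr17:76561109-76561192), SNORD49A of SNHG29 (chr17:16440036-16440106), SNORD50B of SNHG5 (chr6:85677589-85677658) and SNORD44 of GAS5 (chr1:173865968-173866028). Capitals mark the C box (TGATGA within the first 20 bases) and the D box (the last CTGA within the last 20 bases).
SNORD7: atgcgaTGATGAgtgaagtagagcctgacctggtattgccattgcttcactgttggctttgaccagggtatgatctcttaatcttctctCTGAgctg
SNORD1B: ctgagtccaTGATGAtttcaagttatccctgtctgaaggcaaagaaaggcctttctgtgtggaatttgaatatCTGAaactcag
SNORD49A: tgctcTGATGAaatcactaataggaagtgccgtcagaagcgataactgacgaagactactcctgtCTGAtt
SNORD50B: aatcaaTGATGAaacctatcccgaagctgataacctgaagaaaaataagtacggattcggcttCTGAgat
SNORD44: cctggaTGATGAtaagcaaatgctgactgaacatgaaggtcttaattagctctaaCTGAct
Box H/ACA examples are SNORA9 of SNHG15 (chr7:44985378-44985510) and SNORA71A of SNHG17 (chr20:38427309-38427442), with the ACA box in capitals (the last ACA within the last 8 bases).
SNORA9: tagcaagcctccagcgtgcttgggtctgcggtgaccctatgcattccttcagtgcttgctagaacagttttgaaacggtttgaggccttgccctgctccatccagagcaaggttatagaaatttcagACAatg
SNORA71A: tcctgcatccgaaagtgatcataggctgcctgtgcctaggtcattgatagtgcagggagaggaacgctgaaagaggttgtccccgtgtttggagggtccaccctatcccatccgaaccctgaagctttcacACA
Of the 139 nested snoRNA genes, 129 had a row in the files, and all of them together received only 182 to 355 counts per library. The snoRNAs were thus not measured by these libraries, and every value that follows is of the host RNA.

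Levels of the members differed widely. TPM, which corrects an abundance for the length of the transcript and the depth of the library, is used here to compare genes with each other. SNHG5 was the most abundant member, at 1136, 1128 and 1124 TPM in −Dox and 1015, 965 and 980.5 TPM in +Dox. SNHG29, formerly named LRRC75A-AS1, followed at 618, 624 and 620.4 TPM in −Dox and 745, 735 and 729 TPM in +Dox. GAS5 had 648, 649 and 649.8 TPM in −Dox and 714, 709 and 686 TPM in +Dox, so that SNHG29 and GAS5 changed places between the groups. These 3 genes held 50.1% of the summed TPM of the members, and the 6 highest (with SNHG6, SNHG32 and SNHG8) held 73.0%. The members as a whole took 0.481%, 0.494% and 0.495% of the TPM of the −Dox libraries and 0.482%, 0.475% and 0.463% of the +Dox libraries, ranges that overlap. At the other end, 13 members had a mean under 20 TPM.

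**Figure D1:**
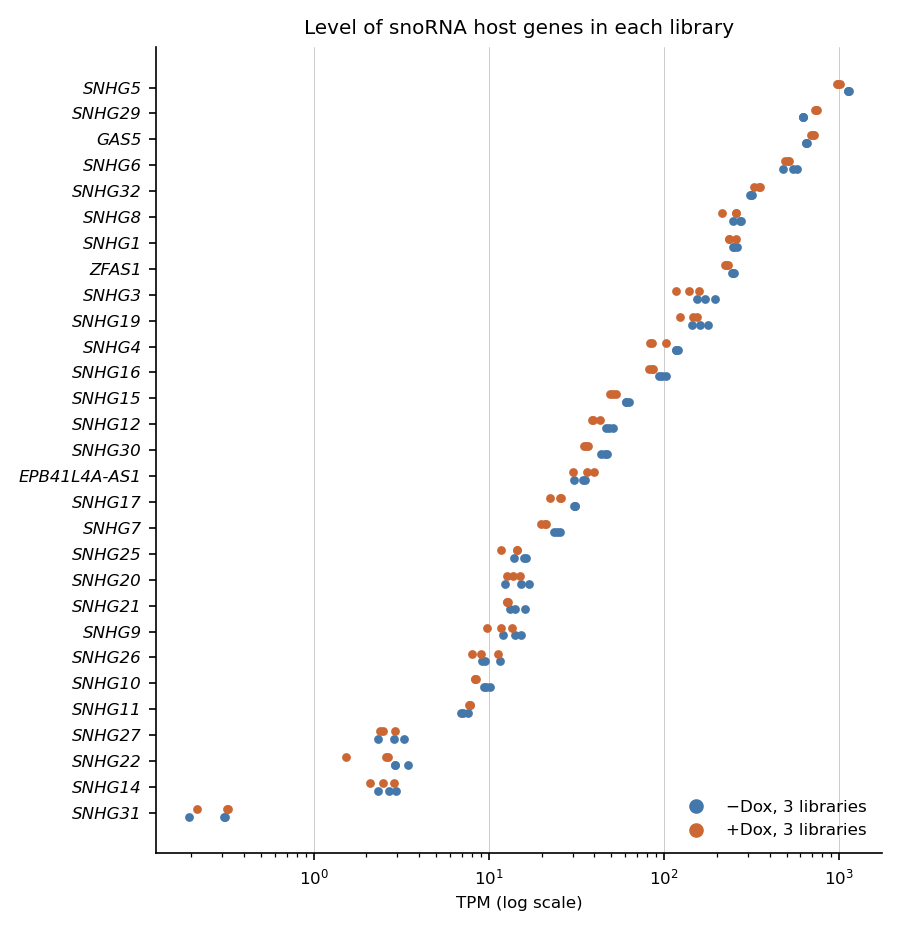
TPM (log scale) of the members with a mean of at least 0.2 TPM, 1 point per library, −Dox in blue and +Dox in orange, ordered by mean. SNHG5 leads at 965 to 1136 TPM, and the genes from SNHG25 down lie under 20 TPM.

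The question asked of the comparison was whether host RNAs changed when Flag-PCBP1 was induced. Of the 29 members tested, 9 were lower in +Dox, 1 was higher and 19 did not pass an adjusted p of 0.05 (edgeR quasi-likelihood test, two-sided, Benjamini-Hochberg over all 21045 genes). The lower members were SNHG4, SNHG30, SNHG15, SNHG17, SNHG16, SNHG12, SNHG3, SNHG7 and SNHG5, and the higher one was SNHG29. The lower calls made up 31.0% of the tested members, beside 7.68% of all genes called lower, and the higher call 3.45%, beside 8.16% of all genes called higher. The changes were small. The largest of the 9 decreases was to 0.76-fold, and none of the members passed an absolute log2 fold change of 1, a limit that 1.46% of all genes passed together with the adjusted p. The log2 fold change was negative for 23 members and positive for 6, with a median of -0.163, beside a median of 0.00613 over all genes and 0.0161 over the 5367 other lncRNA genes tested. Among those other lncRNA genes 189 were higher and 139 lower. With 1 library left out in turn, the member median ran from -0.193 (without −Dox replicate 3) to -0.0999 (without +Dox replicate 2). Every +Dox library lay below every −Dox library for 11 members (37.9%, beside 15.8% of all genes) and above for 2 (6.9%, beside 17.4%).

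**Figure D2:**
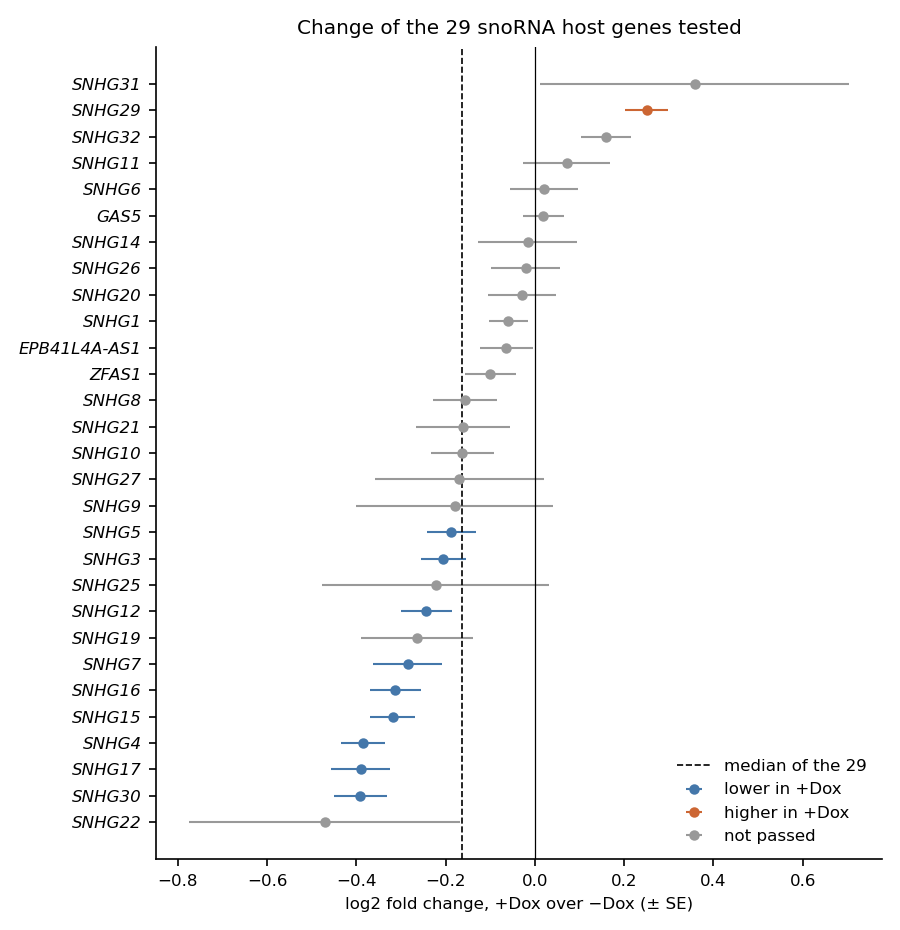
Log2 fold change (+Dox over −Dox) with its SE for the 29 members tested, ordered by value, blue for lower, orange for higher and grey for not passed. The dashed line is the median of -0.163, and the widest bars belong to low genes such as SNHG31 and SNHG22.

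SNHG4, at chr5:139274102-139284899 on the plus strand, gave the smallest p. It hosts H/ACA snoRNAs. Its CPM was 151, 151 and 145.5 in −Dox and 112, 121 and 109 in +Dox, so the groups were far apart relative to the spread within them. The log2 fold change was -0.39 ± 0.05 (SE; adjusted p = 0.000269), a fall of 23.4%. SNHG30, at chr17:35568050-35574900 and host of SNORD7, a guide for the spliceosomal U6 RNA, had 42.4, 47.6 and 46.0 CPM in −Dox and 35.5, 33.1 and 35.1 in +Dox. Its log2 fold change was -0.39 ± 0.06 (adjusted p = 0.000782), again with no overlap. SNHG15, host of SNORA9 at chr7:44983019-44986961 on the minus strand, had 80.6, 85.7 and 82.9 CPM in −Dox and 67.8, 68.5 and 63.5 in +Dox. The fall was 19.8% (log2 fold change -0.32 ± 0.05, adjusted p = 0.00114).

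SNHG17 and SNHG16 fell by similar amounts. SNHG17, at chr20:38419638-38435409 on the minus strand, hosts SNORA71 and SNORA71A to SNORA71D, while SNORA71E lies in SNHG11. The CPM of SNHG17 was 46.2, 47.7 and 46.4 in −Dox and 38.4, 36.8 and 31.9 in +Dox, with the lowest value in +Dox replicate 3 (log2 fold change -0.39 ± 0.07, adjusted p = 0.00171). SNHG16, at chr17:76557727-76670985, hosts 3 box C/D snoRNAs, SNORD1A, SNORD1B and SNORD1C. It had 178, 186 and 191 CPM in −Dox and 162, 142 and 142 in +Dox. The log2 fold change was -0.31 ± 0.06 (adjusted p = 0.00261), and the groups did not overlap. With an offset for the average length of the transcripts in use, SNHG16 was at -0.182 with an adjusted p of 0.0851.

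The other 4 lower members rested on smaller or more variable differences. SNHG12, at chr1:28578538-28583132 on the minus strand, carries snoRNAs of both classes, and had 42.8, 47.7 and 46.1 CPM in −Dox and 38.1, 40.1 and 37.2 in +Dox (log2 fold change -0.24 ± 0.06, adjusted p = 0.0126). SNHG3, at chr1:28505980-28510892, hosts SNORA73A and SNORA73B, copies of the abundant U17 snoRNA that acts in cleavage of the ribosomal RNA precursor. Its CPM was 263, 263 and 260.1 in −Dox and 240.4, 229.5 and 212 in +Dox (log2 fold change -0.21 ± 0.05, adjusted p = 0.0154). On the TPM scale the SNHG3 groups overlapped, at 154 to 194 TPM in −Dox and 117 to 158 TPM in +Dox.

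SNHG7, at chr9:136721366-136728184 on the minus strand and host of SNORA17A and SNORA17B, had 25.3, 32.0 and 28.6 CPM in −Dox and 24.1, 23.1 and 23.3 in +Dox (log2 fold change -0.29 ± 0.08, adjusted p = 0.0239). The spread lay in −Dox, where replicate 1 came close to the highest +Dox library. SNHG5, at chr6:85650491-85678932 on the minus strand, hosts SNORD50B. It had 384, 413 and 395 CPM in −Dox and 371, 322 and 354 in +Dox (log2 fold change -0.19 ± 0.06, adjusted p = 0.0368). These are the weakest of the 9 calls. With +Dox replicate 3 left out, 5 of the 9 lower members were called, and SNHG12, SNHG3, SNHG7 and SNHG5 had adjusted p of 0.0618, 0.0594, 0.0846 and 0.0799. Under the length offset 4 were called (SNHG4, SNHG30, SNHG15 and SNHG17).

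SNHG29 was the 1 member higher in +Dox. It lies at chr17:16438767-16480249 on the plus strand and hosts SNORD49A, SNORD49B and SNORD65. Its CPM was 468, 502 and 483 in −Dox and 595.5, 549 and 584.5 in +Dox, a rise of 19.0% (log2 fold change 0.25 ± 0.05, adjusted p = 0.00362) with no overlap between the groups. SNHG4, SNHG30, SNHG15, SNHG17 and SNHG29 kept their calls in all 13 gene-level alternatives other than a fold limit (a log2 fold change of at least 1 in size), which none of the members met.

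**Figure D3:**
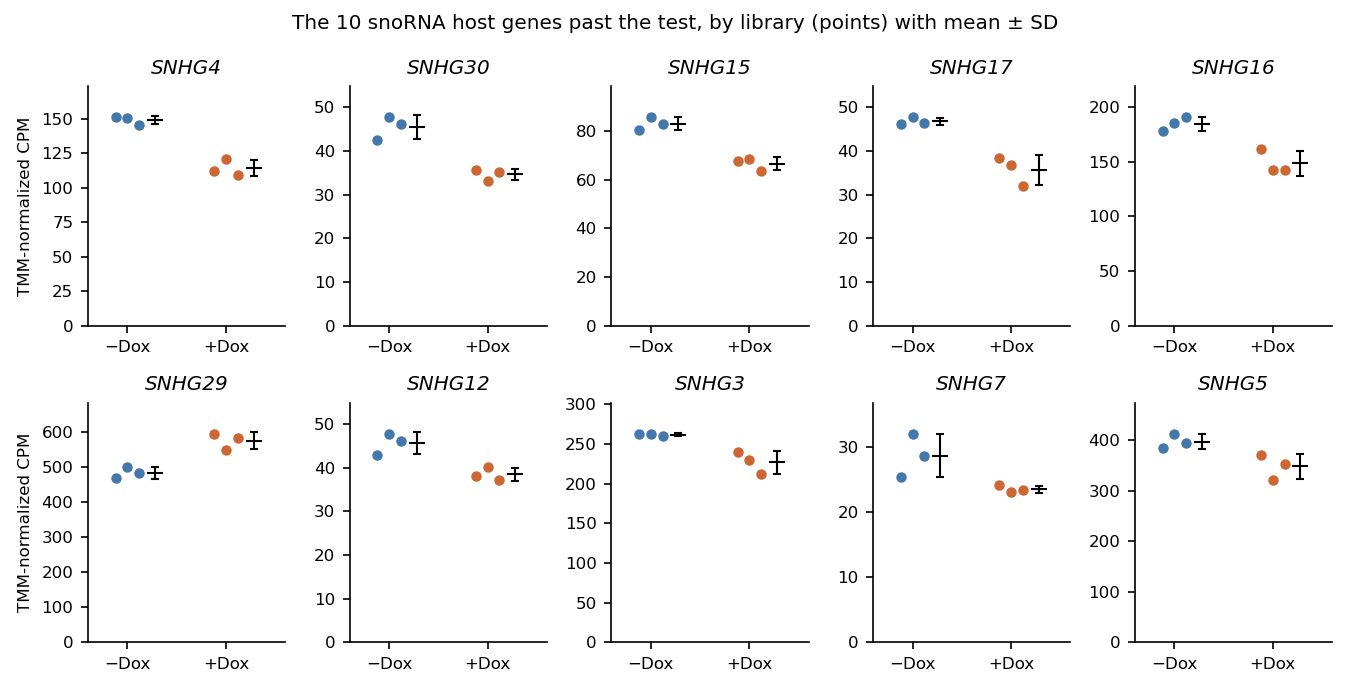
TMM-normalized CPM of the 10 members past the test, 1 point per library with mean ± SD beside them, −Dox in blue and +Dox in orange, each axis starting at 0. The 2 groups do not overlap in any panel, and the gap is narrowest for SNHG7 and SNHG5.

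The remaining abundant members did not pass. SNHG32, formerly named C6orf48 and host of SNORD48 and SNORD52, had 206, 233.5 and 221 CPM in −Dox and 261, 238 and 239 in +Dox, groups that did not overlap, with a log2 fold change of 0.16 ± 0.06 and an adjusted p of 0.0736. GAS5 had 399.7, 426.5 and 408 CPM in −Dox and 432, 408 and 409.7 in +Dox, a log2 fold change of 0.02 ± 0.05 (adjusted p = 0.842). GAS5 thus overlapped on the count scale although its TPM did not, a point taken up with its transcripts. SNHG6 had 129, 165.5 and 147 CPM in −Dox and 158, 143 and 147 in +Dox (log2 fold change 0.02 ± 0.08, adjusted p = 0.901). SNHG8, host of SNORA24, had 57.2, 67.7 and 66.7 CPM in −Dox and 61.0, 52.7 and 58.3 in +Dox (log2 fold change -0.16 ± 0.07, adjusted p = 0.176). Each of these 2 genes had its lowest −Dox value in replicate 1.

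Of the other members that did not pass, SNHG1, host of 7 nested snoRNA genes, was at -0.06 ± 0.04 on the log2 scale, and ZFAS1, host of the SNORD12 family, was at -0.10 ± 0.06. EPB41L4A-AS1, host of SNORA13, was at -0.06 ± 0.06, with 29.2 to 33.4 CPM over the 6 libraries. SNHG10, host of SCARNA13, a small Cajal body RNA, had no overlap between the groups (12.6 to 13.02 CPM in −Dox and 11.4 to 11.6 in +Dox) at -0.16 ± 0.07 and an adjusted p of 0.143. SNHG22 also had no overlap, at 0.697 to 0.989 CPM against 0.423 to 0.665 CPM, with a log2 fold change of -0.47 ± 0.30 and an adjusted p of 0.349. SNHG14, the long transcript of the Prader-Willi region that carries 81 of the 139 nested snoRNA genes, had 8.34 to 10.8 CPM and a log2 fold change of -0.02 ± 0.11. The others were SNHG19 (-0.26 ± 0.13), SNHG20 (-0.03 ± 0.08), SNHG21 (-0.16 ± 0.10), SNHG25 (-0.22 ± 0.25), SNHG26 (-0.02 ± 0.08), SNHG27 (-0.17 ± 0.19), SNHG9 (-0.18 ± 0.22), SNHG11 (0.07 ± 0.10) and SNHG31 (0.36 ± 0.35). SNHG18 (0, 0 and 0 counts in −Dox and 0, 1 and 5 in +Dox) and SNHG28 (0, 3 and 0 counts and 10, 0 and 14) were below the count limit and were not tested.

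Grouped by level, 6 of the 7 members with a mean of 20 to 100 TPM were lower (median log2 fold change -0.313), beside 16.4% of all genes at that level called lower and 13.1% higher. Among the 11 with at least 100 TPM, 3 were lower and 1 higher (median -0.0997), beside 16.1% lower and 7.75% higher of all genes there. Of the 11 tested members under 20 TPM none passed in either direction (median -0.161), beside 5.29% lower and 7.14% higher of all genes there, with SEs of 0.0698 to 0.346 against 0.0436 to 0.126 in the top band. Grouped by the snoRNAs they carry, and beside 7.68% lower and 8.16% higher of all genes, 5 of 11 hosts of H/ACA snoRNAs alone were lower (median -0.18), as were 3 of 12 hosts of C/D snoRNAs alone (median -0.0797), which also included SNHG29. Of the 2 hosts of both classes SNHG12 was lower and GAS5 was not, and none of the 4 hosts of Cajal body RNAs alone passed (median -0.162). No test of a difference between these classes was made.

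Promoter sequence was compared because the members are known as a class for pyrimidine tracts at the start of their RNAs. The RefSeq promoter table (GRCh38.p14) held 27 of the 31 members, and SNHG15, SNHG25, SNHG6 and SNHG9 were not matched. The windows shown run from 20 bases before the RefSeq start to the 20th base of the RNA, for 5 lower members and for SNHG29. They are on the plus strand unless given, at chr5:139274081-139274120 (SNHG4), chr1:28581854-28581893 (SNHG12, minus strand), chr17:76557744-76557783 (SNHG16), chr6:85678714-85678753 (SNHG5, minus strand), chr9:136728165-136728204 (SNHG7, minus strand) and chr17:16438967-16439006 (SNHG29). Capitals mark the longest unbroken run of C and T on the RNA strand that reaches within 3 bases of the start.
SNHG4: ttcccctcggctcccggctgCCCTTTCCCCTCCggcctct
SNHG12: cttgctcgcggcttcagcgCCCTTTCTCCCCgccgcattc
SNHG16: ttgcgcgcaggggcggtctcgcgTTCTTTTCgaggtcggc
SNHG5: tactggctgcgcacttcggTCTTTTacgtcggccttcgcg
SNHG7: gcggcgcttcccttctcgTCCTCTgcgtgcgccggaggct
SNHG29: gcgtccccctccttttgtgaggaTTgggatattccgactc
A run of at least 8 was found at 5 of the 27 member starts (18.5%), beside 9.7% of all 35116 promoters of the table and 18.9% of the 217 protein-coding host genes with a promoter. The runs were 13 bases at SNHG4, 12 at SNHG12 and 8 at SNHG16 among the 8 lower members with a promoter, 6 at each of SNHG17, SNHG3, SNHG5 and SNHG7, and 3 at SNHG30. Outside them the run was 22 at SNHG18, which was not tested, 8 at SNHG32, 7 at each of ZFAS1, SNHG19, SNHG14 and SNHG31, 6 at SNHG8 and SNHG28, 2 at SNHG29, and 1 to 5 at the others. The RefSeq start need not be the start used in K562, which was not measured here.

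Transcripts were examined next, since Salmon assigns each read to annotated transcripts and most members have many. The members had 890 transcripts in the files, of which 402 had a mean count above 10. None was called in either direction by edgeR over all 86178 transcripts tested, of which 0.129% were called higher and 0.0754% lower. At an unadjusted p under 0.05 there were 50 member transcripts, 14 higher (3.48%) and 36 lower (8.96%), beside 5.29% and 4.75% of all transcripts. DESeq2 gave an adjusted p for 384 member transcripts and called 12 higher (3.12%) and 23 lower (5.99%), beside 3.79% and 3.21% of all. With at least 10 counts in every library edgeR called 1 higher and 1 lower of 246 (0.407% each), beside 0.524% and 0.392% of all. The lowest adjusted p was 0.0598, for SNHG4-202, the most abundant transcript of SNHG4 (2383 bases, 36.3% of the TPM of the gene in −Dox and 35.9% in +Dox). Its CPM was 101, 100.2 and 97.7 in −Dox and 77.0, 80.7 and 76.0 in +Dox, a ratio close to that of the gene.

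In SNHG29 the main transcript and SNHG29-201, a minor one, differed in sign. SNHG29-243 (924 bases) held 74.6%, 76.3% and 75.8% of the TPM of the gene in −Dox and 81.2%, 80.7% and 79.9% in +Dox. Its log2 fold change of 0.38 ± 0.05 (adjusted p = 0.0839) was larger than that of the gene. SNHG29-201 was at 4.47, 3.89 and 3.56 CPM in −Dox and 1.75, 1.07 and 1.84 in +Dox (log2 fold change -1.36 ± 0.26, adjusted p = 0.16). Both transcripts had groups that did not overlap, without passing the adjusted threshold. For SNHG30, the main transcript SNHG30-201 held 77.4% ± 1.52 (SD, n = 3) in −Dox and 71.6% ± 2.09 in +Dox. The shares of SNHG29-243 and SNHG30-201 did not pass with limma (adjusted p of 0.687 and 0.694). For SNHG15, the main transcript SNHG15-203 held 43.2% ± 1.06 in −Dox and 50.9% ± 1.99 in +Dox, and its own log2 fold change was 0.01 ± 0.06 while the gene fell. As Salmon assigned the reads, the decrease of SNHG15 lay in its other transcripts. No SNHG15 transcript passed with edgeR, however, and no share of one passed with limma. Among the minor transcripts with the smallest p, GAS5-222 had 8.13, 8.36 and 7.76 CPM in −Dox and 5.475, 5.21 and 4.21 in +Dox (log2 fold change -0.70 ± 0.14, adjusted p = 0.158). SNHG5-268 was listed at 0 in every −Dox library and at 0.359 to 0.4255 CPM in +Dox. SNHG1-264 had 0.28 to 0.616 CPM in −Dox and was listed at 0 in every +Dox library. Neither passed. Each met the count limit only through the group where it was present, so both are given as a description only. A value of 0 can be a failed split of reads between similar transcripts, and the part of this was not tested.

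For the main transcripts of the other members given in full, shares in −Dox and +Dox were 34.0% and 30.6% for SNHG16-213, 76.8% and 75.2% for SNHG5-277, 44.2% and 43.4% for SNHG12-202, and 44.8% and 47.7% for SNHG3-201. They were 37.0% and 42.4% for SNHG7-205, 42.0% and 43.4% for SNHG32-204, 47.3% and 46.3% for SNHG8-203, and 47.8% and 53.9% for SNHG6-203. SNHG17 was the most divided, with 118 annotated transcripts and only 8.19% and 11.9% on its main one, SNHG17-217. Such shares carry an error of assignment between similar transcripts that these tests do not see.

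The forms of GAS5 are given in full, although none of its transcripts passed with edgeR and none of their shares with limma. GAS5-255, a spliced RNA of 12 exons and 607 bases, held 35.8%, 37.1% and 35.8% of the TPM of GAS5 in −Dox and 41.6%, 40.0% and 40.2% in +Dox. The 29 GAS5 transcripts annotated as retained_intron, which keep at least 1 intron, held 25.1%, 22.4% and 22.7% in −Dox and 16.9%, 17.6% and 17.6% in +Dox. Neither range overlapped between the groups. Over all 39060 transcript shares with a value in every library 7.13% stood higher in every +Dox library in this way, and of 8402 genes with retained_intron forms 8.38% had a lower share of them in every +Dox library. The retained_intron share of GAS5 was not tested. The share of GAS5-255 was at 0.27 ± 0.15 on the log2 ratio scale with an adjusted p of 0.745 (limma over 39073 transcript shares), and so did not pass. Retained-intron forms are longer than the spliced RNA, and on the count scale their share went from 42.5% to 35.4%, and the TPM of GAS5 stood apart between the groups while its counts overlapped. With the length offset the log2 fold change of GAS5 was 0.149 with an adjusted p of 0.0776.

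Over all members together, retained_intron transcripts took 7.0%, 6.34% and 7.20% of the TPM in −Dox and 5.60%, 6.30% and 5.45% in +Dox, a mean difference of -1.07 percentage points with no overlap, although −Dox replicate 2 and +Dox replicate 2 were nearly level. Without GAS5 the groups overlapped (3.91% to 4.85% against 3.33% to 4.32%). In total 14 members have such a transcript, and the share was large in SNHG12 (69.9% ± 0.505 in −Dox and 71.4% ± 7.04 in +Dox) and SNHG3 (55.2% ± 4.78 and 52.3% ± 4.79), with overlap in both. Over all transcripts in the files, retained_intron forms also took less of the TPM in every +Dox library, at 5.0%, 4.88% and 4.9% in −Dox and 4.68%, 4.75% and 4.46% in +Dox.

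A changed share was called for 1 of the 100 member transcripts tested, beside 0.0717% of all transcript shares, and it is given as a description only. It was SNHG11-239, a retained_intron transcript of SNHG11, which met the lower limit of a 5% mean share through +Dox alone. It was listed at 0 in all 3 −Dox libraries and at 23.8%, 14.2% and 11.7% of the gene in +Dox. The adjusted p of 0.0417 rests on a log ratio set against the pseudocount of 0.1 TPM. The transcript is low, at 0.975 to 2.01 CPM in +Dox, and the level of SNHG11 as a gene did not pass. The call was lost with a pseudocount of 1 TPM and without any 1 of +Dox replicates 2 and 3 and −Dox replicates 1, 2 and 3. A value of 0 from Salmon can be a failed split between similar transcripts, and the part of this was not tested.

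**Figure D4:**
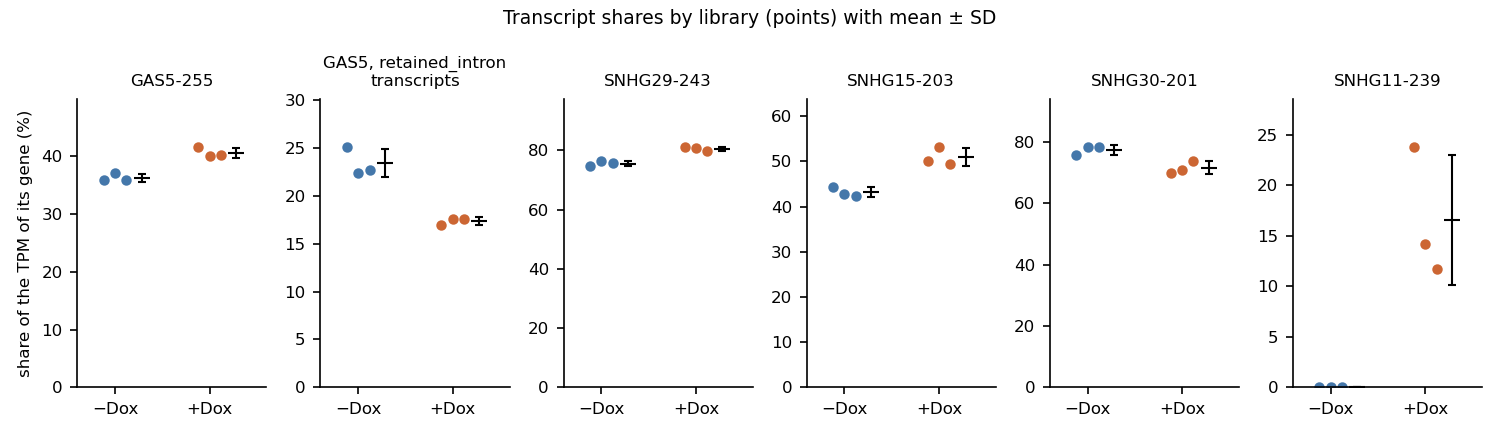
Share (%) of the TPM of its gene held by a transcript, or by all retained_intron transcripts of GAS5, 1 point per library with mean ± SD, −Dox in blue and +Dox in orange. GAS5-255 and SNHG29-243 lie higher in every +Dox library, the retained_intron forms of GAS5 lower, and SNHG11-239 is at 0 in −Dox. With limma only the share of SNHG11-239 passed, and that of the retained_intron forms was not tested.

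Several members share a start region or exon bases with another gene, and the strand setting of the quantification is not given in the sources used here. SNHG3 starts 37 bases from RCC1, the exchange factor of Ran, on the same strand and shares 5.92% of its exon bases with it. RCC1 fell as well, from 104 to 85.9 CPM (log2 fold change -0.28 ± 0.05, adjusted p = 0.00216). SNHG4 starts 350 bases from MATR3, which encodes a nuclear matrix protein, on the same strand, with 14.0% of its exon bases shared. MATR3 was at 129 CPM in −Dox and 112.5 in +Dox (log2 fold change -0.20 ± 0.06, adjusted p = 0.0397), a smaller fall than that of SNHG4. How far shared reads set these pairs of values was not tested.

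Genes on the opposite strand did not follow the members in a common way. SLC3A2, 51 bases from the start of SNHG1, was at -0.10 ± 0.06, RPS2, 54 bases from SNHG9, at 0.08 ± 0.06, and TRAF7, 293 bases from SNHG19, at 0.06 ± 0.06. ZNFX1 next to ZFAS1 was at -0.04 ± 0.06, ZBTB37 next to GAS5 at 0.03 ± 0.08 and BARD1 next to SNHG31 at 0.13 ± 0.06. None of these 6 passed. ACAA2, an enzyme of fatty acid oxidation 12 bases from the start of SNHG22, rose (0.27 ± 0.06, adjusted p = 0.00617), and SIL1, which overlaps SNHG4, rose (0.21 ± 0.06, adjusted p = 0.0385). UBE3A, whose exons overlap SNHG14 on the other strand, fell (-0.17 ± 0.05, adjusted p = 0.0469). The low genes EPB41L4A, at 1.305 and 2.30 CPM by group mean and opposite EPB41L4A-AS1, and ENSG00000284526, opposite SNHG16 at 1.72 and 0.695 CPM, went up (0.81 ± 0.19, adjusted p = 0.0101) and down (-1.31 ± 0.24, adjusted p = 0.00255). ENSG00000267546, 44 bases from the start of SNHG16, and ENSG00000286817, 109 bases from that of SNHG21, did not pass. Of the other overlapping genes tested on the opposite strand, those named here (GAS5-AS1, GLRX5, TRNAU1AP, FSD2, MYO5B, LRRC75A and DIPK1B) did not pass. On the same strand, SEC14L1 (overlapping SNHG20), ENSG00000285565 (SNHG32) and ENSG00000271793 (SNHG5) did not pass either. Nor did ENSG00000252690, also on the same strand, which shares 72.9% of the exon bases of SNHG21.

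The proteins that bind and assemble snoRNAs were compared as lists, beside the 7.68% of all genes called lower, the 8.16% called higher and the 84.2% that did not pass. Of 8 core proteins of the finished particles, 5 were lower and none higher (median log2 fold change -0.176). GAR1, an H/ACA protein, was at -0.36 ± 0.06 (adjusted p = 0.00114), NOP56, a box C/D protein, at -0.29 ± 0.05 (adjusted p = 0.00115), DKC1, the pseudouridine synthase, at -0.19 ± 0.04 (adjusted p = 0.011), and SNU13, which binds the C/D motif, at -0.21 ± 0.05 (adjusted p = 0.015). FBL, the methyltransferase, was the other one, and NOP10, NOP58 and NHP2 did not pass. Of 12 assembly factors, 6 were lower and none higher (median -0.163), led by NOLC1, a nucleolar and Cajal body chaperone, at 218 CPM in −Dox and 163 in +Dox (log2 fold change -0.42 ± 0.05, adjusted p = 7.88e-05). ZNHIT6 (-0.19 ± 0.05), SHQ1 (-0.18 ± 0.05) and NOPCHAP1 (-0.22 ± 0.07) followed. The log2 fold change was negative for all 8 and all 12. With 1 library left out, the assembly count was 1 (for +Dox replicate 2, +Dox replicate 3 or −Dox replicate 3), 2 (for −Dox replicate 1 or 2) or 4 (for +Dox replicate 1). Over the same runs the core count was 3 to 7, with 3 for +Dox replicate 2, −Dox replicate 2 or −Dox replicate 3. With the length offset 1 assembly factor and 4 core proteins were lower. With the replicate number as a block, 2 assembly factors and 2 core proteins were lower.

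Factors of nonsense-mediated decay, the pathway known to turn over spliced host RNAs, and mRNAs with a 5′ pyrimidine tract were counted as lists in the same way. The share that did not pass was 83.3% of the decay factors and 84.2% of the tract mRNAs, about that of all genes (84.2%). By direction, 7.68% of all genes were lower and 8.16% higher. The log2 fold change was negative for 14 of 18 decay factors and 5 of 19 tract mRNAs. Every +Dox library lay below every −Dox library for 7 decay factors and 3 tract mRNAs, beside 15.8% of all genes. The reverse held for 1 and 3, beside 17.4%. Of 18 decay factors, 3 were lower and none higher (median -0.0762), namely EIF4A3 (-0.27 ± 0.05, adjusted p = 0.00496) and MAGOH (-0.24 ± 0.06, adjusted p = 0.023), both of the exon junction complex, and DHX34 (-0.19 ± 0.05, adjusted p = 0.0255). NBAS was at 0.17 ± 0.05 and did not pass. That count was 1 without +Dox replicate 2 or 3 or −Dox replicate 2 or 3. Of 19 tract mRNAs outside ribosomal proteins, 2 were lower and 1 higher (median 0.0295): VIM, an intermediate filament protein (-0.44 ± 0.07, adjusted p = 0.000961), and NPM1, a nucleolar chaperone (-0.26 ± 0.04, adjusted p = 0.00149), fell, and TPT1 rose (0.19 ± 0.05, adjusted p = 0.0298). EIF3F was at 0.15 ± 0.05 and did not pass. The call of TPT1 was lost when replicate 1 or 3 of either group was left out, and with the length offset.

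Host genes outside the members give a further frame. Of 272 protein-coding genes with a snoRNA in an intron 238 were tested, and 43 were lower, 17 higher and 178 not passed (74.8%). Over all genes 7.68% were lower, 8.16% higher and 84.2% not passed. Lower calls were thus more frequent than over all genes, as among the members, although the median was -0.0111. Every +Dox library lay below every −Dox library for 64 of the 238 and above for 37, beside 15.8% and 17.4% of all genes. NCL, which encodes nucleolin, was at 1161 CPM in −Dox and 895 in +Dox (log2 fold change -0.38 ± 0.05, adjusted p = 0.000155), POLR1C, a subunit of RNA polymerases I and III, was at -0.37 ± 0.05 (adjusted p = 0.000225), and TSR1, a ribosome assembly factor, at -0.33 ± 0.05 (adjusted p = 0.000409). MAGED2 rose (0.43 ± 0.06, adjusted p = 0.000409). Leaving out −Dox replicate 3 brought the 17 higher calls to 9, and leaving out −Dox replicate 2 or +Dox replicate 3 brought them to 11. With the length offset 6 were higher. NOP56 belongs to this list and to the core proteins. Of 51 other lncRNA hosts 21 were tested, and here 4 were higher and 1 lower (median 0.0409), with 76.2% not passed. LINC00888 rose from 22.0 to 31.7 CPM (0.53 ± 0.06, adjusted p = 9.9e-05), as did ENSG00000213963 (0.29 ± 0.07) and RAB33B-AS1 (0.43 ± 0.13), while DANCR, also known as SNHG13, fell from 201.5 to 169 CPM (-0.25 ± 0.05, adjusted p = 0.00551). Leaving out −Dox replicate 3 brought the count of 4 to 1, and leaving out +Dox replicate 3 or −Dox replicate 2 brought it to 2.

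**Figure D5:**
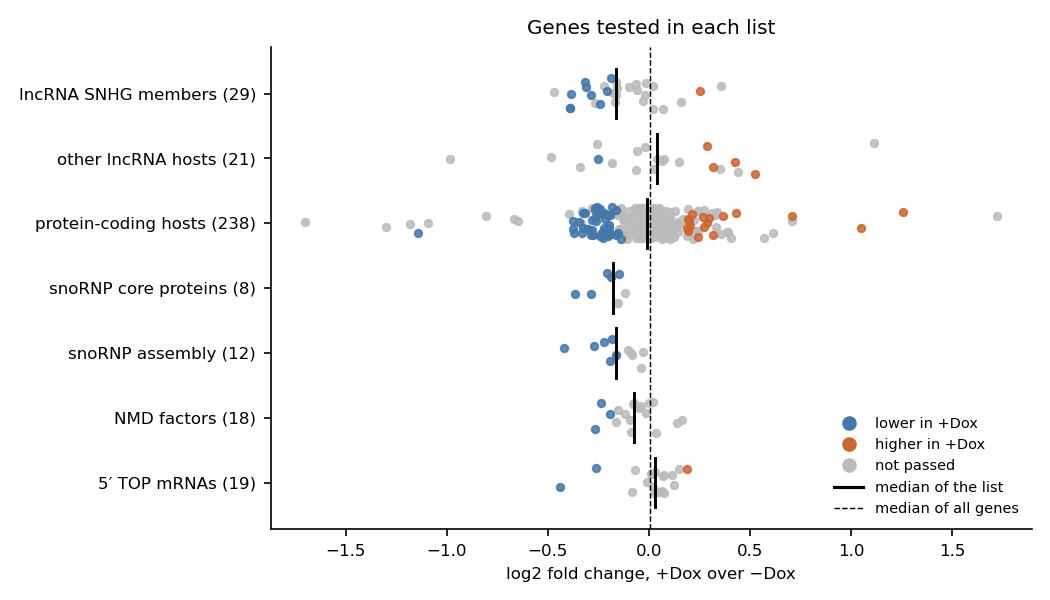
Log2 fold change (+Dox over −Dox) of each gene tested, by list with the number tested, blue for lower, orange for higher and grey for not passed, a bar at the median of each list and a dashed line at the median of all genes. With all 6 libraries the medians of the members, the core proteins and the assembly factors are -0.163, -0.176 and -0.163. Those of both other sets of hosts lie near 0, although 43 of the 238 protein-coding hosts were lower and 17 higher (7.68% and 8.16% of all genes). Without +Dox replicate 2 the member median is -0.0999.

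Content of CCC, a short form of the C-rich sequence that PCBP1 binds, was counted on the RNA strand in the most abundant transcript of each gene, overlapping matches included. The 9 lower members had a median of 15.6 CCC per kilobase (1.93 in SNHG5 to 26.7 in SNHG7), SNHG29 had 15.2, and the 19 that did not pass had a median of 11.9 (3.13 to 38.6). Over all 21045 genes tested the median was 16.8, and it was 17.6 in the 1616 genes called lower and 16.8 in the 1717 called higher. These are counts of letters, not of binding sites.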

How the data were processed

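Libraries of polyA RNA were sequenced as paired ends of 150 cycles. Per the labels, the submitters' processing notes name Salmon 1.10.2, STAR 2.7.11b, FastQC, MultiQC and the build hg38, and the authors deposited for each transcript an estimated count (not scaled) and a TPM value, with an effective length of another unit, bases. The index, strand and bias settings of Salmon are not given in the sources used here. Replicates were not pooled.

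Transcripts were matched to GENCODE 44 (251612 of 252045, without regard to version; 433 did not match). Estimated counts were summed per gene and rounded to whole numbers, and TPM was summed. For genes and transcripts whose mean count exceeded 10, edgeR 4.0.16 (TMM, quasi-likelihood) was run in R 4.3.3, and calls were made at an adjusted p under 0.05 at any fold. Transcript shares were tested with limma 3.58.1 on the log2 ratio of the TPM of a transcript to the other transcripts of its gene (pseudocount 0.1 TPM, genes of at least 1 TPM, mean shares of 5% to 95%). The share of retained_intron transcripts over the members is given by its values, with no test. The exact test of 3 against 3 cannot give a two-sided p below 0.1. Alternatives were DESeq2 1.42.0, its size factors, other count limits, a transcript length offset, the replicate number as a block, each library left out, other share settings and an absolute log2 fold change above 1.

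Full values are given for members past the test and for the 6 highest by TPM, up to 4 genes of each of 7 lists by p, the main transcripts, transcripts with the smallest p and neighbours within 1 kb of a start (1000 bases) or sharing exon bases. The members, lists and rules were chosen with earlier results of these data known. On simulated data, edgeR called 142 of 200 genes changed 1.25-fold with 9 unchanged genes called, and 200 of 200 changed 2-fold with 8. For transcripts changed 2-fold it called 56 of 200, fewer than for genes. limma called 184 of 200 shares changed 3-fold, with 10 unchanged shares called. The spread in these simulations was set in advance, not estimated from the libraries. Changed genes and transcripts were drawn from those with higher counts, so the rates do not describe low members. Values rest on 70811161 to 84061068 counts per library, and the precision of low members is limited by their counts. Python 3.11.15, numpy 2.4.6, pandas 2.3.3, scipy 1.17.1 and matplotlib 3.10.9 were used. A few genes and 1 snoRNA under these rules are not reported here. Data of the study other than these 6 libraries were not analysed here.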

Additional observations from a re-analysis of the deposited data

How the results depend on the processing

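Counts of lower members ran from 5 to 11 with each library left out in turn (5 without +Dox replicate 3 and 11 without −Dox replicate 1, when SNHG19 and SNHG8 also passed), and were 4 with the transcript length offset and 0 under the fold limit of 1. The count of higher members was 2 with DESeq2 and with all genes of any count (SNHG32 joining SNHG29), 0 under the fold limit and 1 with each library left out. Over all genes 3333 were called, 1883 with the length offset, 308 under the fold limit and 2267 to 3313 with a library left out. Apart from the fold limit, SNHG5 and SNHG7 lost their calls in 6 of 13 alternatives each, with adjusted p of up to 0.136 and 0.154. SNHG12 lost its call in 3 (up to 0.0618), SNHG3 in 2 (up to 0.0742) and SNHG16 in 1. In those alternatives the log2 fold changes were -0.197 to -0.133 for SNHG5 (-0.187 as reported), -0.304 to -0.204 for SNHG7 (-0.285), -0.239 to -0.214 for SNHG12 (-0.243), -0.299 and -0.156 for SNHG3 (-0.205) and -0.182 for SNHG16 (-0.313), so some were as large as reported. None of the 10 changed sign. The replicate number did not pair the libraries (correlations of same-number deviations of 0.0075, -0.06 and -0.0029). With it as a block 8 members were lower, SNHG5 being lost (adjusted p = 0.108), 1 was higher, and 2490 genes were called in all. The assembly, decay and other lncRNA host counts of 6, 3 and 4 were each 1 with the length offset, and the block gave 2 core proteins and 2 assembly factors lower and 11 protein-coding hosts higher. TPT1 also lost its call with the block.

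For member transcripts DESeq2 called 12 higher and 23 lower (3.79% and 3.21% of all transcripts), and at least 10 counts in every library gave 1 and 1 (0.524% and 0.392% of all). Leaving out a library gave 0 throughout. The 1 changed share was 0 with a pseudocount of 1 TPM and with the block, and 0 to 1 with a library left out. The difference in retained_intron share stayed between -1.33 and -0.892 points with a library left out. Among members that did not pass, values with a library left out crossed 0 for GAS5 (-0.00817 to 0.0402), SNHG14 (-0.103 to 0.0804), SNHG20 (-0.0981 to 0.0197), SNHG11 (-0.00263 to 0.132), SNHG26 (-0.0704 to 0.0333) and SNHG6 (-0.0684 to 0.109). The length offset changed the sign of EPB41L4A-AS1 (0.115) and SNHG6 (-0.0382). The causes were not tested.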

Other observations

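MYC, which encodes a transcription factor known for activating ribosome synthesis, was named after its values were seen. Its CPM was 152, 147 and 153 in −Dox and 96.9, 94.6 and 88.3 in +Dox (log2 fold change -0.69 ± 0.05, adjusted p = 2.15e-06, edgeR). Its part in the 9 lower host genes was not tested.

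Of the snoRNA genes nested in the members, 3 had enough counts for the test and none passed. The log2 fold change was negative for all 3 (median -0.328), beside 10295 of the 21045 genes tested. The +Dox libraries lay below the −Dox libraries for 1, beside 15.8% of all genes. SNORA73B of SNHG3 was at 2.51 ± 0.882 CPM (SD, n = 3) in −Dox and 2.30 ± 0.305 in +Dox, and SNORA71B of SNHG17 at 0.444 ± 0.0557 and 0.352 ± 0.177. These values are no measure of the snoRNAs, which lack a polyA tail.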
